A study of Mus musculus with 12 samples.

Results

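Open chromatin at the genes of 9 cathepsins and of their secreted inhibitor was compared between macrophages that had entered the brain from a bone marrow (BM) graft and the microglia of the host. The 10 genes were *Ctsa*, *Ctsb*, *Ctsc*, *Ctsd*, *Ctsh*, *Ctsk*, *Ctsl*, *Ctss*, *Ctsz* and *Cst3*, chosen by name, and every peak annotated to any of them was used. These were 80 of 60288 peaks in untreated mice and 83 of 54953 peaks in mice given lipopolysaccharide (LPS). ATAC-seq, in which a transposase cuts accessible DNA and adds sequencing adapters to it, was performed on 12 libraries, 3 for each of 4 groups. All mice were labelled as wild type C57BL/6J, were 6 weeks old per the study's text when irradiated with 950 cGy, and received donor BM, so that the host cells of every group had been irradiated too. CD45.1 untreated and CD45.2 untreated cells came from the brains of mice 4, 5 and 6, which received no injection. CD45.1 LPS and CD45.2 LPS cells came from mice 1, 2 and 3, which were killed 12 h after 2.5 mg/kg LPS, a bacterial endotoxin. CD45.1 marks cells of the graft and CD45.2 cells of the host, and both were sorted from each animal (30000 to 50000 cells) as Ly6C/G- CD11b+ cells with low CD45. The labels give 3.5 or 9 months between transplantation and analysis without tying either to a mouse, and the study's text gives 9 months for these profiles. Treatment, mouse and peak table go together, so an effect of LPS cannot be told apart from a difference between these sets of mice or tables.

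Cathepsins are proteases of lysosomes and endosomes, where the acidic lumen keeps most of them active, and cystatin C (Cst3) blocks the cysteine cathepsins outside the cell. *Ctsb*, *Ctsc*, *Ctsh*, *Ctsk*, *Ctsl*, *Ctss* and *Ctsz* encode cysteine proteases, *Ctsd* an aspartic protease and *Ctsa* a serine carboxypeptidase. Microglia and other brain macrophages express many of them, and use them to degrade engulfed material and to process antigen for MHC class II. ATAC-seq reports where the DNA is open around these genes, not how much transcript or protease is made.

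Peaks were unevenly spread over the genes. *Ctsc* had 27 peaks in either table, *Ctsh* had 11 and 14 in untreated and LPS mice, *Ctsb* 10 and 9, and *Ctsd* 10 and 8. *Cst3* had 5 and 7 peaks, *Ctsl* 5 and 6, and *Ctss* and *Ctsz* had 5 each in either table. *Ctsa* and *Ctsk* had 1 peak each. A peak was annotated to the gene with the nearest transcription start site, which is not proof that it acts on that gene. Of the 80 untreated peaks, 43 were intergenic, 24 lay in introns and 9 in promoters, that is 53.8%, 30% and 11.3% against 32.6%, 38.9% and 22.2% of all peaks. Peak positions follow the tables' own mm9 coordinates, and gene positions come from GENCODE vM1 on that build. *Ctsc* spans chr7:95426595-95459398 and *Ctsd* chr7:149557053-149573943, *Ctsh* chr9:89948990-89970927, *Ctsl* chr13:64464522-64471614 and *Ctsb* chr14:63741302-63764758. *Ctsk* and *Ctss* are neighbours at chr3:95303208-95313284 and chr3:95330708-95360325. *Cst3* lies at chr2:148697458-148701428, *Ctsa* at chr2:164658373-164666532 and *Ctsz* at chr2:174252994-174264540.

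Per library, total tags (sequenced read ends, as the tables' headers give them) were 8392877.5 to 9107770 for untreated mice, and 2966364 to 6556594.5 for LPS mice. One library, CD45.2 from mouse 4, stood apart, with 18.4% of its tags in merged peaks against 29.7% to 39.0% in the other untreated libraries. Loci of 7 microglia and macrophage markers held 1951 to 2427 summed normalized tags in CD45.1 and 3214 to 3492 in CD45.2 libraries of untreated mice. All 7 had peaks. The 3 oligodendrocyte loci held 885.8 to 913.0 and 937.6 to 962.3 summed tags, the 3 neuronal loci 27.5 to 39.4 and 171 to 202, the 3 astrocyte loci 179.5 to 211 and 264 to 310. Sums for neutrophils and monocytes (2 of 4 loci with peaks), lymphocytes (1 of 4) and endothelial cells (2 of 3) were at most 138. *S100a8*, *Mpo*, *Cd3e*, *Cd79a* and *Tek* had no peak in untreated mice. Each table was scaled on its own and LPS libraries held fewer total tags, so these sums cannot be compared between treatments. After LPS the microglia and macrophage sums were 850.9 to 1011 in CD45.1 and 1123 to 1356 in CD45.2. The other sums then ranged from 406.2 to 453.6 for oligodendrocytes, from 15.6 to 93.4 for neurons and from 140.4 to 186 for astrocytes, and stayed at or under 115 for the other lists. The neuronal range was 15.6 to 16.8 in CD45.1 and 53.7 to 93.4 in CD45.2, and *Mpo*, *Tek*, *Cd3e* and *Cd79a* had no peak. Whether these marker signals have a part in the differences at cathepsin genes was not tested.

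The peaks on which the results turn are shown first, as the forward strand of mm9, with the capitals marking a match to a motif on either strand. The first 4 lie upstream of *Ctsc* and differed between grafted cells and host microglia by more than 4-fold in untreated mice. Names give the distance in bp from the start site, where a negative value is upstream. The motifs searched were the PU.1 core GAGGAAG, the CLEAR-type E-box CACGTGA of lysosomal genes, AP-1 TGANTCA, CEBP TTGCNNAA and the IRF motif, and none of the matches shown overlaps another. Of these motifs, PU.1 is known from macrophage enhancers, and AP-1, CEBP and IRF from the response to endotoxin.
*Ctsc* −160842 (chr7:95265685-95265822): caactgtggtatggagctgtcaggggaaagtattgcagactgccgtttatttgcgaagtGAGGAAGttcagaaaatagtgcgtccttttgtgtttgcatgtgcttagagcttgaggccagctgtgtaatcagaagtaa
*Ctsc* −70463 (chr7:95356059-95356206): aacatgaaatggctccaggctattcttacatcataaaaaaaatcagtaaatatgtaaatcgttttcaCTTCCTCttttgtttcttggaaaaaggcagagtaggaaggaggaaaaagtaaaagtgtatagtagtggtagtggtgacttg
*Ctsc* −34871 (chr7:95391662-95391786): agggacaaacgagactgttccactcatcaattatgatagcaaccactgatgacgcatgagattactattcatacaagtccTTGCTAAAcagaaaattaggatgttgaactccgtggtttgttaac
*Ctsc* −23016 (chr7:95403527-95403631): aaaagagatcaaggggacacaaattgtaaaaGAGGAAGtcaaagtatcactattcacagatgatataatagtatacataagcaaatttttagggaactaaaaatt

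The peaks at −160842, −70463 and −23016 each held 1 PU.1 core, which 20.8%, 20.5% and 16.2% of untreated peaks of similar width (within 10 bp) also held. The peak at −34871 had no PU.1 core and held a CEBP match (6.28% of peaks of similar width). In LPS mice the peak called at this place reached further downstream, to chr7:95391666-95391841, and the added bases held an AP-1 match, as did 13.5% of LPS peaks of similar width.
*Ctsc* −34842 in LPS mice: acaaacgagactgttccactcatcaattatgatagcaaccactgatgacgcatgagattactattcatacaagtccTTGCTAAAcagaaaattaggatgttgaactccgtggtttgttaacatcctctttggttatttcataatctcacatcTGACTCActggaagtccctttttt

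The next 3 peaks are among those that rose after LPS in both populations, the first with a difference between the populations. *Ctsh* −11186 held a PU.1 core (20.2% of untreated peaks of similar width). *Ctsl* −27698 and *Ctsk* +12780 each held an AP-1 match (5.66% and 6.24% of untreated peaks of similar width). In LPS mice the peaks called at both places also held an AP-1 match, as did 12.7% and 13.3% of LPS peaks of similar width. *Ctsc* −26357, −13236 and −6388, not shown, also passed as higher after LPS in both populations. They held none of the motifs searched, and neither did the peaks called at these places in LPS mice.
*Ctsh* −11186 (chr9:89937845-89937994): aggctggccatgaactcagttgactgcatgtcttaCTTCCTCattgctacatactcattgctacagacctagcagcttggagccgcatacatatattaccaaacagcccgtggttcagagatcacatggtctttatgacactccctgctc
*Ctsl* −27698 (chr13:64499479-64499573): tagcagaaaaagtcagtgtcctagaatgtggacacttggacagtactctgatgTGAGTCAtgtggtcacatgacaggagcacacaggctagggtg
*Ctsk* +12780 (chr3:95315847-95315978): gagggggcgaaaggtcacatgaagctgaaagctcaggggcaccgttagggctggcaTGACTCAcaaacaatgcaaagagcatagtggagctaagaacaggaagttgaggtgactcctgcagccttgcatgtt

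Over all member peaks, 21 of 80 in untreated mice held a PU.1 core (26.3% against 18.5% of all peaks), 5 the CLEAR-type E-box (6.25% against 2.42%), 9 AP-1 (11.3% against 6.23%), 13 CEBP (16.3% against 7.12%) and 1 the IRF motif (1.25% against 2.85%). In LPS mice the counts among 83 peaks were 18 for PU.1 (21.7% against 18.7%), 5 for the E-box (6.02% against 2.84%), 17 each for AP-1 and CEBP (20.5% against 12.6% and 10.95%) and 1 for IRF (1.20% against 3.00%). These shares are a description of the letters in the peaks and were not tested.

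To ask whether grafted cells and host microglia differed at rest, tags per peak were compared in untreated mice with DESeq2, with p-values adjusted over all 59170 tested peaks. At the threshold of 0.05, 9 of 80 member peaks were higher in CD45.1 and 2 were higher in CD45.2, where 8.54% and 6.32% of all peaks were. The libraries of both populations did not overlap at 29 of the 80 peaks, against 35.5% of all tested peaks. The median log2 fold change (CD45.1 over CD45.2) was 0.21 over the member peaks and 0.00 over all peaks. The members' count in CD45.1 was near the background, and their count in CD45.2 was below it; neither difference was tested. In these sorted populations, fewer cells with an open site and less opening per cell cannot be told apart. With the mouse as a block, 1 was higher in CD45.2, where 4.08% of all peaks then were. *Ctsd* −12614 and *Ctss* −2848 were then lost from the peaks higher in CD45.1, where 5.96% of all peaks were. Without CD45.2 of mouse 4, 10 member peaks passed as higher in CD45.1 and 1 as higher in CD45.2, against 8.15% and 5.51% of all peaks. The plot of all tested peaks by gene shows this spread.

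**Figure D1:**
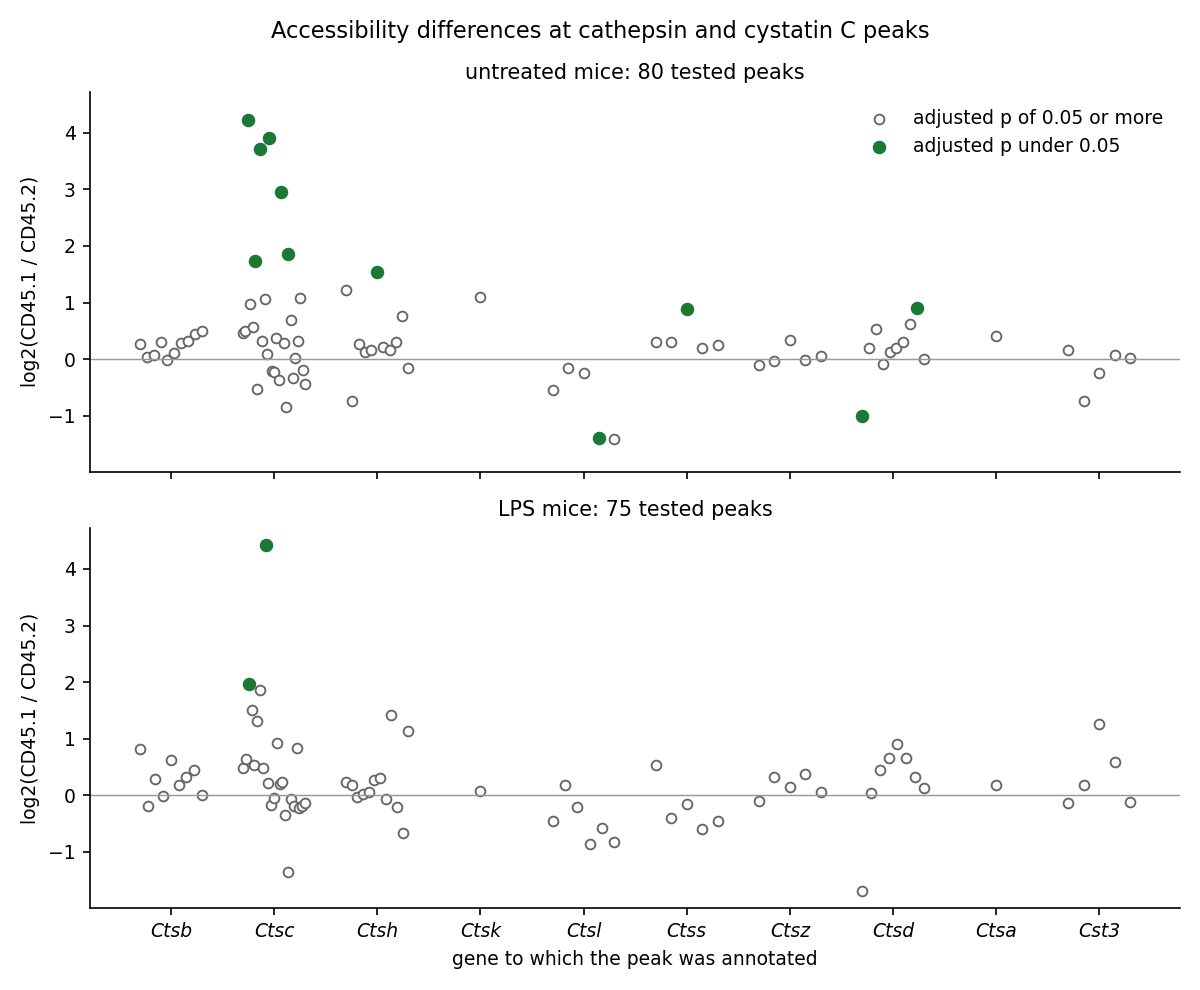
Log2 ratio of CD45.1 to CD45.2 (y axis) at every tested peak, grouped by the annotated gene (x axis, peaks of a gene in order of position) in untreated mice (top) and LPS mice (bottom). Filled points passed at an adjusted p under 0.05 (DESeq2, 3 against 3 libraries): 6 *Ctsc* peaks among 11 in untreated mice, and 2 *Ctsc* peaks after LPS.

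*Ctsc* encodes cathepsin C (dipeptidyl peptidase I), which removes dipeptides from the start of proteins and is known for activating the granule proteases of immune cells. All 6 of its 27 peaks that passed were higher in CD45.1, and all lay upstream of the gene. By a stricter rule, a change past 4-fold with an adjusted p below 0.01, 4 of the 80 member peaks passed, all of them at *Ctsc*, where 3.78% of all peaks were higher in CD45.1 by that rule. No member peak was higher in CD45.2 by it, where 2.65% of all peaks were.

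At the intergenic peak at −34871, CD45.1 libraries of mice 4, 5 and 6 held 51.8, 53.9 and 69.7 normalized tags (scaled within the untreated table), and CD45.2 libraries 5.74, 3.87 and 2.43. The populations were far apart, a 15.0-fold difference (log2 3.91, SE 0.51, DESeq2 adjusted p 5.78e-12). The authors' lists called a peak there in 3 of 3 CD45.1 libraries and in none of the CD45.2 libraries.

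The peak at −70463 held 46.2, 40.2 and 39.2 normalized tags in CD45.1 and 2.46, 1.16 and 4.87 in CD45.2. Again no library of either population came near the other (log2 3.72, SE 0.57, adjusted p 8.65e-09 in DESeq2). The most distant peak that passed, at −160842, lies in an intron of *Grm5*, a glutamate receptor gene, and held 28.9, 20.5 and 22.9 tags against 1.64, 1.94 and 0.81. The raw tags behind it summed to 74 in CD45.1 and 4 in CD45.2, a ratio of 18.8 after scaling (exact binomial 95% interval 7.04 to 70.8, for counting error only), with an adjusted p of 2.24e-05 in DESeq2.

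At −23016, CD45.1 libraries held 33.6, 39.2 and 39.2 tags, and CD45.2 libraries 4.92, 4.26 and 4.46 (log2 2.96, SE 0.51). This was a 7.79-fold difference, and a list called it in 3 of 3 CD45.1 and no CD45.2 library. In LPS mice no *Ctsc* peak was called at this place, so it was not tested there. The nearest were at −25721 and −13265. The remaining 2 peaks differed less, by 3.32-fold at −85122 (104 ± 9.06 against 30.6 ± 5.26 tags, mean ± SD, n = 3) and by 3.64-fold at −7378 (30.5 ± 6.18 against 8.72 ± 2.20). These 6 peaks passed under each alternative that could be computed for them, namely other scalings, edgeR, filters, the mouse as a block and leaving out any library.

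The other 21 *Ctsc* peaks did not pass. The promoter peak at −75, the strongest of the gene, held 193, 160 and 237 tags in CD45.1 and 247, 173 and 168 in CD45.2, so that the populations overlapped (log2 0.02, SE 0.18). The second promoter peak at −690 held 90.2 ± 11.4 against 115 ± 21.2 tags. Between −27509 and −25728, 4 peaks close to the one at −23016 differed by log2 values between −0.38 and 0.37. Thus peaks that differed and peaks that did not alternated along the locus, as the plot of its peaks by distance shows.

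**Figure D2:**
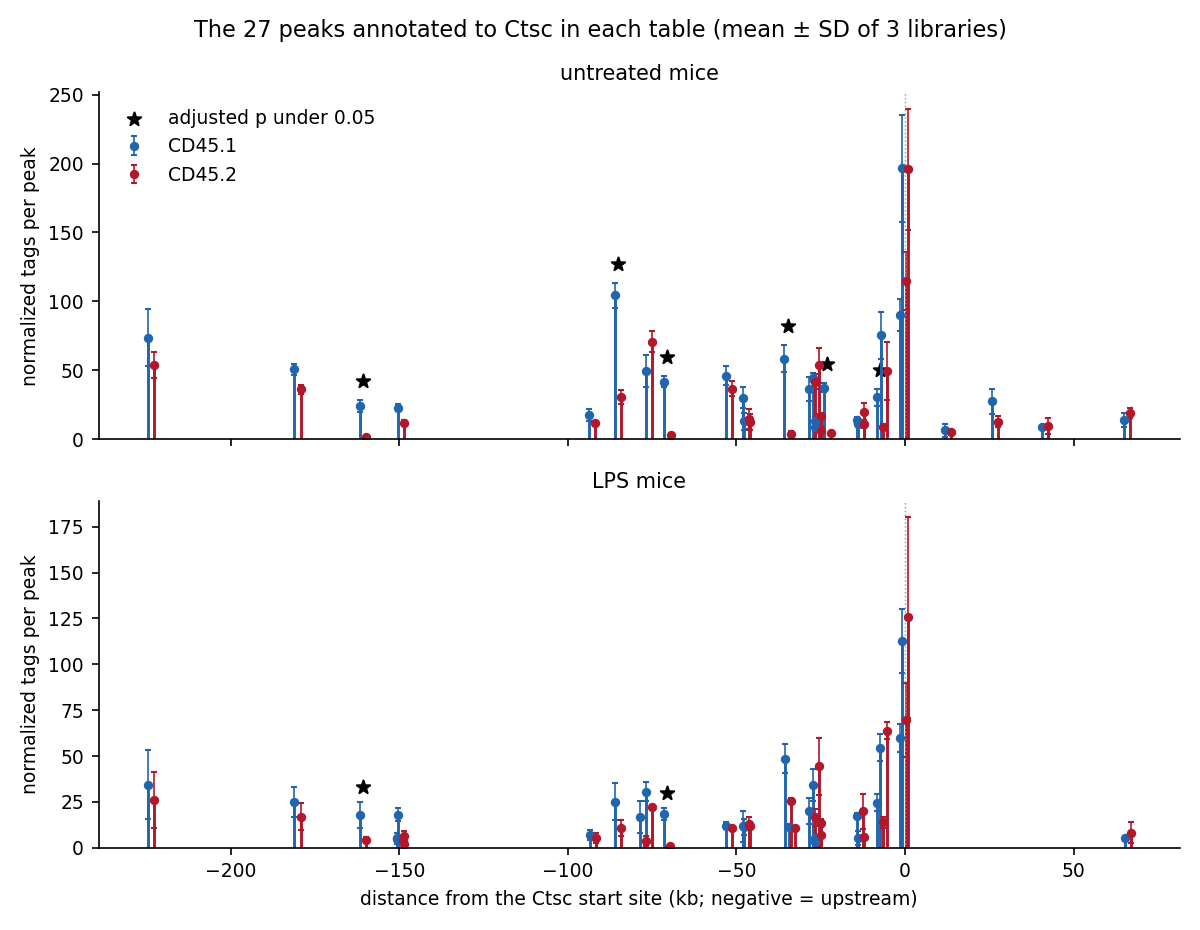
Normalized tags (y axis, scaled within each table, mean ± SD of 3 libraries) at the 27 peaks annotated to *Ctsc* in untreated (top) and LPS mice (bottom), by distance from its start site in kb (x axis). CD45.1 is blue, CD45.2 is red and stars mark adjusted p under 0.05. The populations meet at the start site (196.7 and 196.0 tags in untreated mice) and part at −34871 bp (58.4 and 4.01).

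*Ctsh* encodes an aminopeptidase of lysosomes that is also known from the processing of surfactant protein. Of its 11 peaks, only the intergenic one at −11186 passed in untreated mice, with 71.4, 67.1 and 103 normalized tags in CD45.1 and 32.0, 17.8 and 34.5 in CD45.2. The lowest CD45.1 library was above the highest CD45.2 library (2.91-fold, log2 1.54, SE 0.30, DESeq2 adjusted p 1.28e-05). At its start site (187 bp, 5′ UTR) the values were 142 ± 13.5 and 123 ± 9.78 tags, and at its strongest peak (−20163) 156 ± 14.2 and 142 ± 25.8. Neither passed. Another 4 of its peaks, from −65314 to −32653, lie in introns of the neighbouring *Rasgrf1*.

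The 2 peaks higher in CD45.2 belonged to *Ctsd* and *Ctsl*. *Ctsd*, the main aspartic protease of lysosomes, had an intronic peak 3400 bp into the gene with 49.0, 48.8 and 37.0 tags in CD45.1 and 86.8, 100.2 and 82.4 in CD45.2. The groups did not overlap (2.00-fold higher in CD45.2, log2 −1.001, SE 0.24, DESeq2 adjusted p 0.00059), and lists called it in 3 CD45.2 and no CD45.1 library. With size factors from total tags the log2 value was −1.005 and the adjusted p 0.119 in DESeq2. A *Ctsd* peak at −12614 went the other way, with 86.8, 91.7 and 56.6 tags against 57.4, 39.1 and 33.7. There the groups overlapped (log2 0.90, SE 0.28, adjusted p 0.0103 in DESeq2). That call was lost without CD45.1 of mouse 4 or 5 (adjusted p 0.124 and 0.131) and without CD45.2 of mouse 5 or 6 (0.131 and 0.173), with the mouse as a block (0.0595) and with total tags as the scale (0.102).

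*Ctsl* encodes an endopeptidase of lysosomes. Its peak at −5331 held 9.79, 16.4 and 2.72 tags in CD45.1 and 28.7, 21.3 and 23.9 in CD45.2 (log2 −1.39, SE 0.51, DESeq2 adjusted p 0.0472). *Ctss*, a cysteine protease known for trimming the invariant chain of MHC class II, had a peak at −2848 with 48.5, 52.9 and 66.4 tags against 24.6, 27.1 and 37.7 (log2 0.89, SE 0.30, adjusted p 0.0267). In both cases the groups did not overlap. Each call was lost with the mouse as a block (DESeq2 adjusted p 0.0916 and 0.0944) and with total tags as the scale (0.225 and 0.312). The *Ctsl* call was also lost without any library other than CD45.1 of mouse 5 (0.109 to 0.291), and the *Ctss* call without any other than CD45.2 of mouse 6 (0.064 to 0.216).

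No peak of *Ctsa*, *Ctsb*, *Ctsk*, *Ctsz* or *Cst3* passed in untreated mice. *Ctsb*, a cysteine protease with both endopeptidase and exopeptidase activity, had 10 peaks with log2 fold changes from −0.02 to 0.50. Its promoter held 80.0 ± 1.49 against 65.9 ± 9.60 tags. *Ctsz*, a carboxypeptidase, had 5 peaks between −0.10 and 0.35, with 103 ± 3.66 against 99.2 ± 3.63 tags at its strongest peak. *Cst3* had the strongest peak of all members at its promoter, with 307, 334 and 306 tags in CD45.1 and 326, 249 and 282 in CD45.2, which overlapped. *Ctsa*, which protects 2 other lysosomal enzymes, held 59.0 ± 11.7 against 43.3 ± 6.37 at its promoter. *Ctsk*, the collagen-degrading protease of osteoclasts, had its only peak 12780 bp beyond its start, past the gene's end, with 25.7, 19.2 and 49.6 tags against 15.6, 15.1 and 12.6 (log2 1.09, SE 0.44, DESeq2 adjusted p 0.0747). It passed with edgeR (0.0137) and without CD45.1 of mouse 5 (0.0425). Of the 9 promoter peaks of the members, none passed, with a median log2 fold change of 0.16.

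Summing all peaks of a gene gave 1 value per gene and library. In untreated mice the sums of *Ctsc* and *Ctsh* were higher in CD45.1 and none of the 10 was higher in CD45.2, where 7.35% and 7.46% of 16174 genes passed in either direction. *Ctsc* held 1157, 1202 and 1071 summed tags in CD45.1 and 954, 777 and 871 in CD45.2 (1.32-fold, log2 0.41, SE 0.10, DESeq2 adjusted p 0.000501). Every CD45.1 value was above every CD45.2 value. Counting only its peaks within 20 kb of the start site, the log2 difference was 0.06 (adjusted p 0.919 in DESeq2).

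*Ctsh* held 644, 728 and 666 summed tags against 586, 538 and 551 (1.22-fold, log2 0.29, SE 0.10, DESeq2 adjusted p 0.0322), again without overlap. That call was lost with the mouse as a block (adjusted p 0.174) and without any library other than CD45.2 of mouse 4 (0.0583 to 0.213). With size factors from total tags neither gene passed (DESeq2 adjusted p 0.9999 for both), at log2 values of 0.46 and 0.33.

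Of the 8 other sums, *Ctsl* held 247 ± 31.7 against 313 ± 37.7 tags (log2 −0.33, SE 0.14), *Ctss* 299 ± 34.2 against 235 ± 30.9 and *Ctsb* 494 ± 1.73 against 430 ± 10.3. In these genes, and in *Ctsk*, the groups did not overlap, yet none passed. How many of all gene sums did not overlap is not given here, so no reading rests on this. *Ctsk* passed with edgeR (adjusted p 0.0352) and without CD45.1 of mouse 5 (0.0479 in DESeq2). *Cst3* held 434 ± 41.1 and 431 ± 26.3, *Ctsz* 428 ± 15.1 and 416 ± 13.8, and *Ctsd* 639 ± 59.9 and 603 ± 29.7, all with overlapping groups. Ordered by summed tags, which also depend on how many peaks a gene has, CD45.1 went from *Ctsc* through *Ctsh*, *Ctsd*, *Ctsb*, *Cst3*, *Ctsz*, *Ctss*, *Ctsl* and *Ctsa* to *Ctsk*. In CD45.2, *Ctsd* stood before *Ctsh*, *Cst3* before *Ctsb* and *Ctsl* before *Ctss*. Neighbours in this order whose libraries overlapped were *Ctsh* and *Ctsd*, *Cst3* and *Ctsz*, *Ctss* and *Ctsl*, and *Ctsa* and *Ctsk* in CD45.1. In CD45.2 they were *Ctsd* and *Ctsh*, *Cst3* and *Ctsb*, and *Ctsb* and *Ctsz*, so the exchange of *Ctsd* and *Ctsh* lay within the spread of the libraries. The plot of sums by library shows these values.

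**Figure D3:**
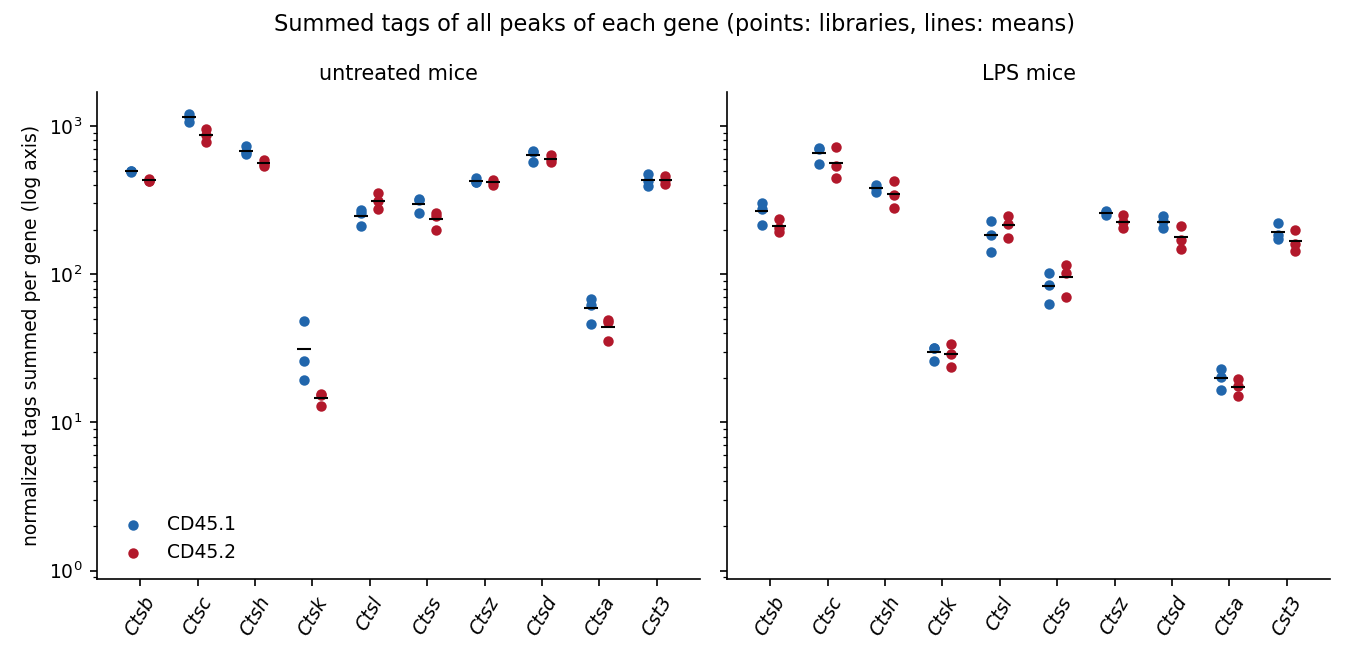
Normalized tags summed over all peaks of each gene (y axis, log scale; each table scaled on its own) for CD45.1 (blue) and CD45.2 (red) libraries of untreated and LPS mice. Points are libraries (3 per group) and lines are means. *Ctsc* and *Ctsh* passed in untreated mice (1143 against 867 and 679 against 558), and no gene passed after LPS.

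The genes whose sums were most like those of *Ctsc* over the 12 libraries were *Pcm1*, *1700016G22Rik* and *Agr3*. The measure was the Euclidean distance between log2(sum + 1) after centring within each table, which was 0.23, 0.24 and 0.26, against a median of 0.98 over 8545 genes. Their own log2 differences in untreated mice were 0.33, 0.25 and 0.46.

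After LPS, fewer peaks differed between the populations, at a lower depth. Of the 75 member peaks with enough tags to be tested (8 were not), 2 were higher in CD45.1 and none in CD45.2, where 4.08% and 2.38% of 49180 peaks were. Without an adjustment, 9 were higher in CD45.1 and 3 in CD45.2 at p under 0.05 in DESeq2. The share of all peaks at that level is not given here, so no reading of the members rests on these counts. With edgeR 7 and 2 passed, against 7.35% and 4.67% of all peaks, and with the mouse as a block 1 and none, against 2.26% and 1.41%. The groups did not overlap at 17 of the 75 peaks, against 27.1% of all tested peaks. The stricter rule left 1 member peak, where 1.78% of all peaks were higher in CD45.1. The median log2 fold change was 0.18 over the member peaks and −0.01 over all peaks. Scaling by total tags moved the median of all peaks to 0.14.

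Both peaks were at *Ctsc*. At −70476, CD45.1 libraries of mice 1, 2 and 3 held 19.4, 21.5 and 15.1 normalized tags (scaled within the LPS table) and CD45.2 libraries 0.88, 0.87 and 1.19. Raw tags summed to 56 against 4, a ratio of 15.5 after scaling (exact binomial 95% interval 5.75 to 59.0), with log2 4.42, SE 0.99 and an adjusted p of 0.000503 in DESeq2. The populations stood apart at this site in both treatments, and the call held without any of the libraries.

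At −160848 the values were 10.5, 24.8 and 18.4 against 3.50, 3.49 and 6.23 (log2 1.97, SE 0.63, DESeq2 adjusted p 0.0305), without overlap. This call was lost with the mouse as a block (adjusted p 0.116) and without any library other than CD45.1 of mouse 1 (0.0927 to 0.314). Just outside the threshold, the *Ctsc* peak at −34842 held 40.4, 48.9 and 56.6 tags in CD45.1 and 26.3, 23.99 and 26.7 in CD45.2 (log2 0.92, DESeq2 adjusted p 0.0628). Next to it came *Ctsc* −77733 with 16.8 ± 8.94 against 3.88 ± 2.64 tags (3.62-fold, adjusted p 0.0748 in DESeq2) and *Ctsc* −149448 with 18.1 ± 3.61 against 6.602 ± 2.46 (2.86-fold, 0.0907). *Ctsl* −27741 held 34.1 ± 11.2 against 60.8 ± 9.78 (log2 −0.83, DESeq2 adjusted p 0.0942).

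No gene sum of the members passed after LPS with DESeq2 or edgeR. In DESeq2, 4.08% and 2.98% of 15722 genes passed as higher in CD45.1 and in CD45.2. None of the members had an unadjusted p under 0.05 in DESeq2, a level for which the share of all genes is not given here. *Ctsc* held 557, 694 and 705 summed tags in CD45.1 and 716, 538 and 444 in CD45.2, which overlapped (log2 0.21, SE 0.18). Log2 differences of the 10 genes ranged from −0.22 (*Ctss*) to 0.34 (*Ctsd*). *Ctsk* held 29.8 ± 3.46 and 28.7 ± 5.07 tags. *Ctsz* was the only member without overlap, with 260 ± 8.71 against 226 ± 23.1. The share of all gene sums without overlap is not given here, so nothing is read from this.

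To ask whether the populations responded differently, peaks of the 2 tables that overlapped each other by at least 50% were matched, which kept 61 of the 80 untreated member peaks. Tags of all 12 libraries were then scaled together and fitted in 1 model. The LPS effect in CD45.1 minus that in CD45.2 passed at 2 member peaks, both under 0, where 0.227% of 39235 peaks did. None was above 0, where 0.0178% of all peaks were. With the mouse as a block, 1 passed, again under 0, where 0.127% of all matched peaks did. Without an adjustment, 7 of the 61 had p under 0.05 in DESeq2. The share of all matched peaks at that level is not given here, so nothing is read from this count. For 14 of the 61, DESeq2 gave no adjusted p, among them −70463 and −160842.

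The first was *Ctsc* −34871. On the joint scale CD45.2 libraries held 3.81, 2.63 and 1.65 tags in untreated mice and 37.8, 34.7 and 39.4 after LPS. CD45.1 libraries held 34.5, 36.1 and 45.9, and after LPS 58.6, 72.9 and 83.9. All 3 CD45.2 LPS libraries lay between the lowest and the highest untreated CD45.1 library. The log2 effect was 3.85 (SE 0.49) in CD45.2 and 0.89 (SE 0.26) in CD45.1, and their difference −2.96 (SE 0.55, DESeq2 adjusted p 0.000159). The change in CD45.1 was lost with the width as an offset (DESeq2 adjusted p 0.280) and without CD45.1 of mouse 4 or 3 (0.0511 and 0.0879). The difference passed with the mouse as a block, with peak width in the model and without any of the libraries.

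The second was *Ctsh* −11186, where untreated CD45.2 libraries held 21.2, 12.1 and 23.4 tags and LPS libraries 114, 91.0 and 98.0. CD45.1 held 47.6, 45.01 and 68.1, and after LPS 101, 96.2 and 118, so that the populations overlapped after LPS and not before it. The change in CD45.1 was lost with the width as an offset (0.0728). The log2 effect was 2.42 (SE 0.26) in CD45.2 and 0.98 (SE 0.23) in CD45.1, with a difference of −1.44 (SE 0.35, DESeq2 adjusted p 0.0136). That difference was lost with the mouse as a block (adjusted p 0.0993), without CD45.1 of mouse 6, 1 or 2 (0.172, 0.0669 and 0.0732), and without CD45.2 of mouse 5 or 3 (0.345 and 0.0619). With total tags as the scale it was −1.33 (adjusted p 0.795 in DESeq2).

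**Figure D4:**
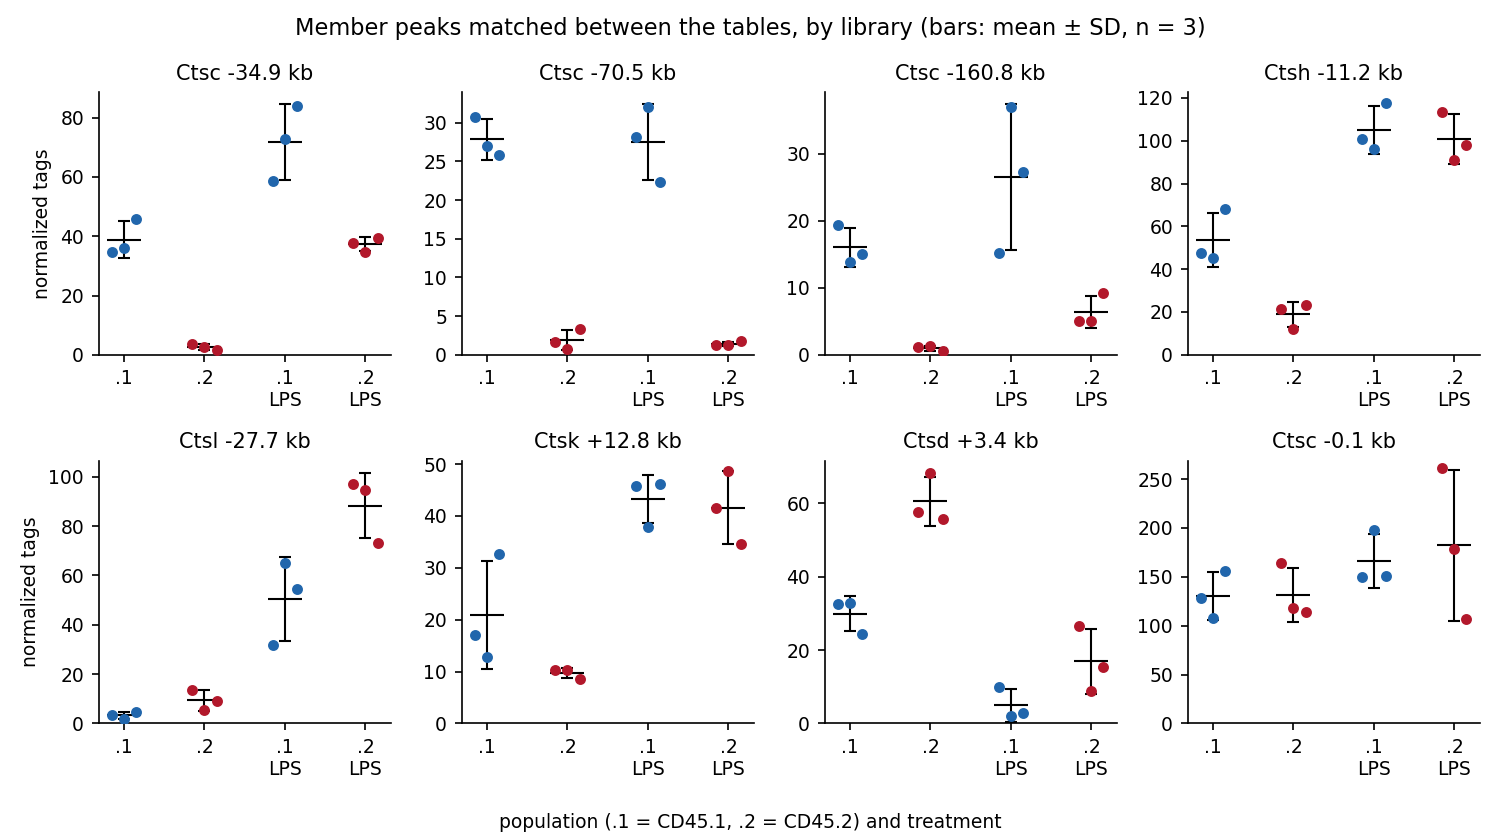
Normalized tags (y axes, scaled over all 12 libraries; each panel starts at 0) at 8 matched peaks in CD45.1 (blue) and CD45.2 (red) libraries of untreated and LPS mice. Points are libraries, and bars the mean ± SD (n = 3). CD45.2 rises from 2.70 ± 1.08 to 37.3 ± 2.36 at *Ctsc* −34871, and holds 1.91 ± 1.28 and 1.43 ± 0.28 at *Ctsc* −70463.

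The same model gave the change after LPS within either population. Of the 61 matched member peaks, 7 were higher and 5 lower after LPS in CD45.1, where 12.4% and 7.29% of all matched peaks were. In CD45.2, 10 were higher and 4 lower, where 11.6% and 4.98% of all matched peaks were. The median log2 changes were 0.04 and −0.08 over the member peaks and −0.00 and −0.01 over all. At 9 peaks both populations passed, 7 up and 2 down, where 7.80% and 2.55% of all matched peaks did. Matched LPS peaks were wider (median 174 against 142 bp over all pairs), which adds tags to them, and with the width as an offset the median of all peaks was −0.27 in either population.

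*Ctsl* −27698 had the largest change in CD45.1, from 3.42, 1.84 and 4.66 to 31.6, 65.1 and 54.6 tags. In CD45.2 it went from 13.6, 5.27 and 9.07 to 97.1, 94.8 and 73.1. Untreated and LPS libraries stood far apart in either population (log2 3.93, SE 0.47, and 3.37, SE 0.35, with DESeq2 adjusted p 1.15e-14 and 9.17e-19). The peak was 95 bp wide in untreated and 151 bp in LPS mice, and with the width as an offset the changes were 3.27 and 2.70, still past the threshold.

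*Ctsk* +12780 rose from 17.1, 12.9 and 32.6 to 45.7, 37.9 and 46.2 tags in CD45.1 and from 10.3, 10.3 and 8.52 to 41.6, 48.6 and 34.6 in CD45.2 (log2 1.07 and 2.04, SE 0.33 and 0.37). The rise in CD45.1 did not hold with the width as an offset (0.67, DESeq2 adjusted p 0.132) or without CD45.1 of mouse 4, 5 or 3 (0.0707, 0.102 and 0.0588). In CD45.2 it held in each alternative that could be computed for it.

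Further upstream of *Ctsc*, the peaks at −6388, −7378 and −160842 rose after LPS in CD45.2 by 1.56, 1.81 and 2.95 on the log2 scale. The corresponding values in CD45.1 were 0.66 (passed), 0.82 and 0.70 (not passed). The difference between the populations passed at neither −6388 nor −7378. At −160842 DESeq2 gave no adjusted p for that difference, so it could not pass there. At −6388, CD45.2 went from 33.2 ± 13.8 to 92.9 ± 5.42 tags and CD45.1 from 50.3 ± 11.9 to 80.4 ± 11.7. The change at −160842 in CD45.2 was lost without CD45.2 of mouse 5, 6 or 3 (DESeq2 adjusted p 0.0557, 0.0646 and 0.0807). In CD45.1, the change at −6388 was lost without CD45.1 of mouse 4, 6, 2 or 3 (0.0857, 0.207, 0.197 and 0.114), without CD45.2 of mouse 5, 2 or 3 (0.0629, 0.0623 and 0.0512) and with the width as an offset (log2 0.59, 0.0695). The peaks at −13236 and −26357 passed as higher in both populations but not with the width as an offset (0.104 to 0.558). At −26357 the call in CD45.1 was also lost without any library other than CD45.1 of mouse 1 and CD45.2 of mouse 1 or 3 (0.0521 to 0.288), and the call in CD45.2 without CD45.2 of mouse 5, 6 or 1 (0.132, 0.155 and 0.217). *Ctsc* −70463 went from 27.8 ± 2.63 to 27.5 ± 4.87 tags in CD45.1 and from 1.91 ± 1.28 to 1.43 ± 0.28 in CD45.2, and passed in neither. The promoter peak of *Ctsc* held 131 ± 24.5 and 166 ± 27.7 tags in CD45.1 and 132 ± 27.7 and 182 ± 77.4 in CD45.2, before and after LPS, without passing.

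*Ctsd* +3400 fell in both populations. It held 32.7, 32.8 and 24.4 tags in untreated and 9.96, 1.94 and 2.80 in LPS mice in CD45.1, and 57.7, 68.2 and 55.8 and then 26.5, 8.84 and 15.3 in CD45.2. No LPS library reached an untreated one of its population (log2 −2.53, SE 0.51, and −1.99, SE 0.36). This peak narrowed from 274 to 149 bp, and with the width as an offset the changes were −1.65 and −1.11, with DESeq2 adjusted p 0.0115 and 0.0182. *Ctsd* −15937 fell by 0.65 in CD45.1 and 0.80 in CD45.2 on the log2 scale, which did not hold with the width as an offset (adjusted p 0.198 and 0.0796 in DESeq2). The call in CD45.1 was also lost without CD45.1 of mouse 4, 5, 2 or 3 or CD45.2 of mouse 5 or 6 (0.0512 to 0.208), and that in CD45.2 without CD45.2 of mouse 5, 6, 1 or 3 (0.0539 to 0.0917).

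At *Ctss*, the intronic peak at 3229 and the promoter peak passed as lower after LPS in CD45.1 but not in CD45.2. The intronic peak held 60.4, 69.5 and 64.9 tags in untreated mice and 47.5, 38.9 and 15.4 after LPS in CD45.1, and 55.1 ± 6.71 and 45.4 ± 10.9 in CD45.2 (log2 −0.94, SE 0.28, and −0.27, SE 0.27). The fall in CD45.1 was lost without CD45.1 of LPS mouse 3 (DESeq2 adjusted p 0.192). The promoter peak fell from 30.9 ± 6.47 to 14.6 ± 7.71 tags, a call lost without CD45.1 of mouse 4, 5, 6, 2 or 3 (0.0536, 0.175, 0.0566, 0.188 and 0.216) and without CD45.2 of mouse 5, 6 or 2 (0.0571, 0.0596 and 0.0530). The difference between the populations passed at neither peak.

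*Cst3* −13646 fell in CD45.2, from 21.2, 21.9 and 21.98 to 6.31, 4.42 and 6.13 tags (log2 −1.99, SE 0.52, DESeq2 adjusted p 0.00207), and passed with the width as an offset too. In CD45.1 it held 18.2 ± 3.19 and 8.06 ± 2.89 tags (log2 −1.17, SE 0.48), which did not pass. The remaining calls were *Ctsc* −85122, lower in CD45.1 (log2 −0.91), *Ctsd* −10315, lower in CD45.2 (−0.84), and *Ctsh* 6206, higher in CD45.2 (0.60). The first was lost without CD45.1 of mouse 5, 6 or 3 (DESeq2 adjusted p 0.0703, 0.0572 and 0.214) and the second without CD45.2 of mouse 5 or 3 (0.108 and 0.109). The third was lost without any library other than CD45.2 of mouse 3 (0.0516 to 0.307) and with the width as an offset (log2 0.41, 0.192). No matched peak of *Ctsa*, *Ctsb* or *Ctsz* passed in either population.

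With size factors from total tags, 8 of the 12 changes in CD45.1 and 4 of the 14 in CD45.2 were lost, all in the same direction. In CD45.1 these were *Ctsc* −85122, −34871, −26357 and −6388 (DESeq2 adjusted p 0.130, 0.0753, 0.195 and 0.232), *Ctsd* −15937 (0.280), *Ctsk* +12780 (0.0743) and the *Ctss* promoter and intronic peaks (0.179 and 0.124). In CD45.2 they were *Ctsc* −26357 (0.171), *Ctsd* −10315 and −15937 (0.0752 and 0.102) and *Ctsh* 6206 (0.458).

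**Figure D5:**
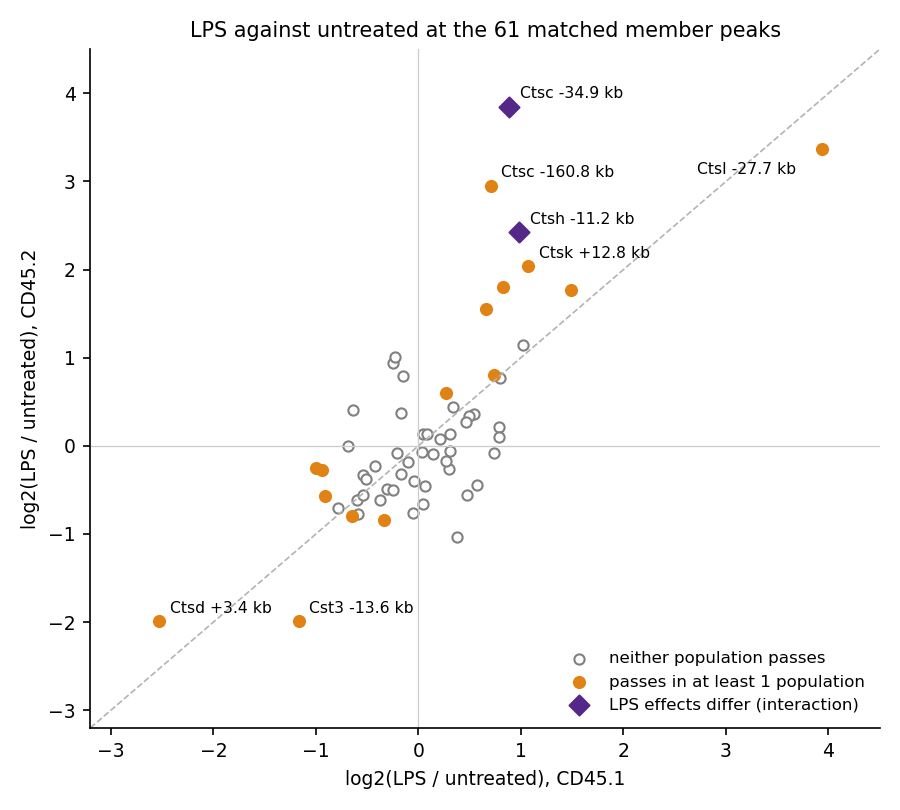
Log2 change after LPS in CD45.1 (x axis) and CD45.2 (y axis) at the 61 matched member peaks. Orange points passed in at least 1 population, purple diamonds are the 2 peaks whose LPS effects differed, and the dashed line marks equal change. *Ctsc* −34871 and *Ctsh* −11186 lie above the line (0.89 and 3.85, 0.98 and 2.42), and *Ctsl* −27698 lies near it (3.93 and 3.37).

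Other genes of the same pathway were counted from gene sums. Of 16 other cathepsins, related lysosomal peptidases and inhibitors, 11 had peaks in untreated mice, and 2 were higher in CD45.1, 1 was higher in CD45.2 and 8 did not pass, against 7.35% and 7.46% of all gene sums that were higher in the one and in the other population. *Ctse*, an aspartic protease of endosomes, held 122 ± 10.1 against 50.1 ± 1.99 summed tags (log2 1.27, SE 0.22) and *Stfa3*, an inhibitor of cysteine cathepsins, 102 ± 20.4 against 38.6 ± 9.91 (log2 1.42, SE 0.26). *Ctsf*, a cysteine cathepsin, was lower in CD45.1, with 61.1 ± 3.00 against 98.6 ± 16.9 (log2 −0.72, SE 0.22, DESeq2 adjusted p 0.0112). *Stfa3* has near-identical neighbours, so reads at it may belong to another stefin gene. The median log2 difference was −0.00 over the list, as over all genes.

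After LPS, 12 of the 16 had peaks, and *Stfa1* was lower in CD45.1 (3.34 ± 3.46 against 15.7 ± 6.15 tags, log2 −2.37, SE 0.72, DESeq2 adjusted p 0.0186) while 11 did not pass, against 4.08% and 2.98% of all gene sums that were higher in the one and in the other population. Of 30 other lysosomal genes, 29 had peaks in untreated mice, of which 1 was higher in CD45.1, 1 was higher in CD45.2 and 27 did not pass, against the 7.35% and 7.46% of all gene sums in these mice. *Sgsh*, which degrades heparan sulphate, held 106 ± 23.9 against 50.3 ± 11.1 summed tags (log2 1.03, SE 0.24). After LPS none of 28 tested passed in DESeq2, against the 4.08% and 2.98% of all gene sums in these mice. Without an adjustment, 2 had p under 0.05 in DESeq2, a level for which the share of all genes is not given here. Others with the smallest p of their list and direction that did not pass were *Ppt1* (338 ± 47.9 against 262 ± 24.3 summed tags) and *Cst7* (60.8 ± 15.7 against 84.5 ± 6.95) in untreated mice. After LPS they were *Ctso* (104 ± 15.2 against 75.3 ± 13.4), *Stfa3* (48.9 ± 9.04 against 31.4 ± 11.5), *Ctsf* (8.08 ± 5.42 against 16.3 ± 4.12), *Npc1* (356 ± 23.9 against 276 ± 33.8), *Lipa* (171 ± 11.8 against 126 ± 23), *Grn* (102 ± 16.99 against 136 ± 32.1) and *Gaa* (32.8 ± 15.8 against 49.0 ± 3.58).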

How the data were processed

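ATAC-seq libraries of CD45.1 and CD45.2 brain macrophages were compared within 6 mice, 3 untreated and 3 given LPS. The submitters' processing notes name bcl2fastq 2.17.1.14, Bowtie2, Picard 1.108, HOMER and the mm9 build, without saying what each was used for. Per the file headers, the authors' deposited peak list of each library gives a HOMER score per peak, from calls with a fragment length of 300 bp, an FDR of 0.001 and 4-fold over the local 10000 bp; the study's methods describe looser calls filtered for reproducibility. Here these lists served only to count the libraries with a peak overlapping a member peak by at least 1 bp. Peaks of the libraries of each treatment had been merged into 1 table. The deposited tables hold estimated counts, namely HOMER tags per merged peak that are not normalized, in steps of 0.5 (49.1% and 47.7% of the untreated and LPS values were not whole). They were rounded after peaks with no library over 10 tags were left out.

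DESeq2 1.42.0 (R 4.3.3) Wald tests with Benjamini-Hochberg adjustment over all tested features compared the populations within each table, for peaks and for sums over the peaks of a gene. Size factors were medians of ratios (0.610 to 1.29 and 0.571 to 1.68). Interactions and LPS contrasts used 39390 peak pairs that overlapped reciprocally by at least 50%, scaled over all 12 libraries. Adjusted p-values are two-sided, and rest on 3 mice per treatment. Intervals and tags cover counting error only. The tests were also run on simulated counts, with a fixed spread and changes only at peaks with a mean of at least 20 tags. Their outcome is not given here, and they do not cover calls at peaks with fewer tags.

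The members and lists were chosen with earlier results of these data known. Named were all members, their peaks past the threshold, the peak nearest the start site and the strongest peak of each gene, the 3 genes most like the member with the smallest p, and from each list the genes with the 2 smallest p in each direction. Values of further member peaks were added after they were seen. Some genes that this rule names are withheld and not reported here. Both populations came from the same animals, which pairs the libraries. Deviations from the group means correlated at 0.081 to 0.087 within untreated mice and at −0.066 to 0.149 within LPS mice. No 2 libraries of a table had equal tags at more than 3.28% of peaks. Alternatives were edgeR 4.0.16, scaling by total tags, no filter or a mean of at least 20 tags, the mouse as a block, each library left out, an overlap of 80%, peaks within 20 kb, and, chosen after seeing the data, peak width as an offset.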

Additional observations from a re-analysis of the deposited data

Results flagged for a closer look

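The change after LPS differed between the populations, by the interaction term of the model over all 12 libraries, at 2 member peaks. At *Ctsc* −34871 the log2 effect in CD45.1 minus that in CD45.2 was −2.96 (SE 0.55, DESeq2 adjusted p 0.000159), and at *Ctsh* −11186 it was −1.44 (SE 0.35, DESeq2 adjusted p 0.0136).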

How the results depend on the processing

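Of the single values, 397 kept their direction and side of the threshold under other settings, 39 lost the call, 2 gained it and 7 reversed, and with a library left out these were 603, 91, 2 and 18. Of the counts, edgeR gave 14 peaks higher in CD45.1 of untreated mice in place of 9 (12.2% of all peaks in place of 8.54%), and after LPS 7 in place of 2 (CD45.1; 7.35% in place of 4.08%) and 2 in place of 0 (CD45.2; 4.67% in place of 2.38%). Total tags as the scale gave 0 in place of 2 higher in CD45.2 of untreated mice (3.67% of all peaks in place of 6.32%). They gave 1 in place of 2 interactions, under 0 (0.0408% of matched peaks in place of 0.227%), and 4 in place of 12 LPS changes in CD45.1. Of all matched peaks, 5.38% were then higher and 2.05% lower after LPS in CD45.1, in place of 12.4% and 7.29%. A mean of at least 20 tags gave 1 higher in untreated CD45.2 (4.7% of all peaks). It gave 0 higher in CD45.1 after LPS by either rule (2.8% of all peaks at the 0.05 threshold). This filter left out *Ctsl* −5331 in untreated mice and *Ctsc* −70476 and −160848 in LPS mice before the test. These lower counts therefore say nothing about those peaks. The replicate block (the mouse) gave 1 higher in untreated CD45.2 (4.08% of all peaks) and 1 higher in CD45.1 after LPS (2.26%). It gave 1 interaction, under 0, as at 0.127% of matched peaks. *Ctsd* −12614 and *Ctss* −2848 were lost from the peaks higher in untreated CD45.1 with the block (5.96% of all peaks), and also with total tags (5.67%). Counts not listed here may therefore differ from the main ones. An overlap of 80%, which left 20 member pairs, gave 0 interactions and 2 LPS changes in either population. Of all such pairs, 10.2% were higher and 5.23% lower after LPS in CD45.1, and 8.27% and 3.01% in CD45.2. The falls in CD45.1 at *Ctsd* −15937 and at the *Ctss* promoter were lost there (DESeq2 adjusted p 0.104 and 0.0807). Neither peak with an interaction is among the 20 member pairs, so the 0 says nothing about these peaks. Leaving out a library gave 7 to 10 peaks higher in CD45.1 and 1 to 2 higher in CD45.2 without LPS, 4 to 5 by the stricter rule, after LPS 1 to 2 and 0, with 0 to 1 by the stricter rule, 1 to 2 interactions, and 4 to 13 and 9 to 14 LPS changes in CD45.1 and CD45.2. Log2 values near 0 reversed. In untreated mice these were *Ctsc* −75 (−0.011 with a mean of at least 20 tags), *Ctsd* −15937 (−0.00625 with edgeR, −0.0159 with total tags and −0.0241 with a mean of at least 20 tags) and *Ctsz* 40 (0.00617 with total tags). In LPS mice they were *Ctsc* −138 (0.0516 with total tags) and the *Ctsc* sum (−0.0773 within 20 kb). With a library left out, the ranges were −0.12 to 0.18 (*Ctsc* −75), −0.14 to 0.13 (*Ctsd* −15937), −0.0868 to 0.0949 (*Ctsz* 40) and −0.0583 to 0.0804 (*Cst3* sum) in untreated mice. In LPS mice they were −0.44 to 0.20 (*Ctsc* −138), −0.13 to 0.19 (*Ctsd* −49), −0.0129 to 0.13 (*Ctsh* −11182), −0.0739 to 0.22 (*Ctsk* 12776), −0.0776 to 0.39 (*Ctsl* 90), −0.00472 to 0.30 (*Ctsh* sum) and −0.042 to 0.24 (*Ctsk* sum). The causes were not tested. Total tags moved the median log2 of all features by over 0.1 for LPS peaks and gene sums (to 0.14 and 0.12) for the LPS change in CD45.2 (to −0.15) and for the interaction (to 0.0802). Low tags, a median of 8 to 23.5 per peak and library after LPS, limit what can be detected there.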
